A study of Mus musculus with 10 samples.

Results

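The 7 genes described here encode enzymes of cholesterol synthesis: Hmgcs1, Idi1, Fdps, Fdft1, Sqle, Lss and Cyp51. They were taken by name from the 23420 genes counted in each library, and all 7 were among the 14161 genes with enough counts to be tested. RNA was sequenced from B cell precursors of the bone marrow of C57BL/6 mice, in 10 libraries. Pro-B cells, sorted as B220+ IgM- CD43+, gave 2 libraries from control mice and 2 from mice with the genotype Mta2_VavKO (Mta2 KO below). Small pre-B cells, sorted as B220+ IgM- CD43- cells and then by light scatter for size, gave 3 control and 3 Mta2 KO libraries. Mta2 is a subunit of the NuRD complex, which combines nucleosome remodelling with histone deacetylation. The Vav regulatory elements named in the genotype are widely used to drive recombination throughout the blood lineages. No label gives the allele, the age or the sex of the mice, or what the controls carried. None says that the replicates of a group came from separate animals. P-values therefore measure only the spread between these libraries, which may be technical apart from a difference in sex given below.

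Cells make cholesterol from acetyl-CoA by way of mevalonate, isoprenoid units, squalene and lanosterol, and they take it up from lipoproteins through receptors at the cell surface. Both routes are under the transcription factor SREBP2, which is held in the endoplasmic reticulum with Scap and Insig when sterols are plentiful and released to the nucleus when they are scarce. Dividing cells need sterols for new membrane, and in the marrow large cycling precursors are followed by small pre-B cells, which are mostly at rest.

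Hmgcs1 condenses acetyl-CoA with acetoacetyl-CoA at the head of the pathway, and Idi1 interconverts the isoprenoid building blocks. Fdps joins them into farnesyl diphosphate, the branch point to sterols, dolichol, ubiquinone and protein prenylation. Fdft1 (squalene synthase) and Sqle (squalene epoxidase) commit carbon to sterols, Lss closes the ring to lanosterol, and Cyp51 removes a methyl group from lanosterol. In the coordinates of the deposited tables (mm10), Hmgcs1 lies at chr13:119690462-119708077, Idi1 at chr13:8885606-8892396, Sqle at chr15:59315092-59331193 and Lss at chr10:76531627-76553934, all on the plus strand. Fdps at chr3:89093588-89101967, Fdft1 at chr14:63145150-63177793 and Cyp51 at chr5:4080674-4104697 are on the minus strand.

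Promoter windows from RefSeq (GRCm38.p6, from 250 bases before to 50 after the start site) were held for 4 of the 7 genes: Hmgcs1, Idi1, Lss and Cyp51. Since the 7 genes moved together between the stages 2 of these windows are printed 5′ to 3′ on the gene's strand. Hmgcs1 was taken as the one with a match to the pattern CACNCCAC and Cyp51 as one without a match to that pattern. Capitals mark matches on either strand to CCAAT, the box bound by NF-Y, and to CACNCCAC, the core of the sterol response element bound by SREBPs. Positions are chr13:119690101-119690400 (plus strand) for Hmgcs1 and chr5:4104648-4104947 (minus strand) for Cyp51.
Hmgcs1: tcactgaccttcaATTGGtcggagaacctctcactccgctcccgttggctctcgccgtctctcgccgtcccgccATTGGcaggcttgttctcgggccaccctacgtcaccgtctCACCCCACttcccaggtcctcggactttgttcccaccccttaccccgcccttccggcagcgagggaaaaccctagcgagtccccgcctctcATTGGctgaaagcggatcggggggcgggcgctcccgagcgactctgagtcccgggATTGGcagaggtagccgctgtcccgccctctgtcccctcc
Cyp51: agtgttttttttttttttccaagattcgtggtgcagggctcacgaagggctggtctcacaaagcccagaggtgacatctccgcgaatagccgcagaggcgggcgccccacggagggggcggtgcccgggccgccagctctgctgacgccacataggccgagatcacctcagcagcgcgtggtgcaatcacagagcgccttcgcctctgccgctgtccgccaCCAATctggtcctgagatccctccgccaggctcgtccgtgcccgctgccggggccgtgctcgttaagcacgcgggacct
The Hmgcs1 window held 1 match to TCACNCCAC, read TCACCCCAC and beginning 137 bases before the start site; it contains the CACNCCAC match. Of 32851 windows of the same length, 1.24% held TCACNCCAC and 6.24% held CACNCCAC on either strand, and the windows of Idi1, Lss and Cyp51 held neither. CCAAT occurred in all 4 windows, with 4 matches in Hmgcs1, 2 in Idi1 and 1 each in Lss and Cyp51, against 37.4% of all windows. GGGCGG, the box bound by Sp1, was also in all 4, against 35.7% of all windows. These matches are descriptions of letters in a window, not of bound sites. Only these exact patterns were searched, so a window without a match may still hold a variant of the element.

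The libraries held 17805507 to 52127004 counts assigned to genes, and 3 counts corresponded to 0.054 to 0.173 CPM (a gene's counts scaled to a common library size, TMM-adjusted). Pro-B libraries were the deepest, and no title number is shared between pro-B and small pre-B libraries, so a difference in collection or depth cannot be told apart from stage. Mta2 read 435.8 and 375.3 CPM in the pro-B controls and 162.5 and 165.6 in the pro-B Mta2 KO; in small pre-B cells it read 437.7, 246.5 and 412.2 in controls and 198.9, 179.4 and 198.3 in the KO. Its log2 change was -1.31 in pro-B (adjusted p = 0.212) and -0.93 in small pre-B cells (adjusted p = 0.042, edgeR quasi-likelihood test), with every KO library below every control; the small pre-B call held in 7 of 19 alternatives and was lost without small pre-B control 3 (adjusted p = 0.066, same test). Small pre-B KO libraries 1 and 2 held Xist RNA at 2520 and 2940 CPM and 4 Y-linked genes at 8.13 and 0.079 summed CPM, while the other 8 libraries had Xist at 0.306 to 31.4 CPM and the Y-linked genes at 224 to 674. By these genes KO libraries 1 and 2 read as female and the other 8 libraries as male. KO library 3 thus came from other mice than KO libraries 1 and 2, and sex is partly mixed with genotype in small pre-B cells. Small pre-B control 3 stood farthest from its group, with a chi-square per degree of freedom of 202 and 212 against the other 2 libraries where the other replicate pairs gave 21.5 to 46.3, and the title and the file header of this library name different numbers. Values of the 7 genes are also given without these libraries. Of the other listed genes named below as changed between the stages, 31 of 31 in controls were still called without small pre-B control 3, and 30 of 30 in the KO with small pre-B KO library 3 alone in its group; counts and values that moved by over 1.5 times are given beside them.

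The pro-B gate held RNA of other cell types. The 14 myeloid and granulocyte markers summed to 10849 to 10969 CPM in pro-B controls and 17073 to 25124 in pro-B KO, against 133 to 398 in small pre-B controls and 227 to 502 in small pre-B KO. The 7 B lineage markers, Pax5 and Ebf1 among them, were all detected in every library and summed to 2077 to 2636 CPM in pro-B and 6088 to 8817 in small pre-B libraries. Plasmacytoid dendritic markers summed to 4102 to 4759 CPM in pro-B and 774.5 to 1100 in small pre-B libraries, and natural killer markers to 342.5 to 579.1 and 9.716 to 159.9. T cell markers summed to 402.8 to 603.8 CPM in pro-B libraries, to 9.205 to 36.58 in small pre-B controls and to 86.11 to 144.4 in small pre-B KO. Erythroid markers summed to at most 44.4 CPM in any library. Fewer cells of a type and less RNA per cell cannot be told apart in such bulk samples, and the part of these cells in the stage differences below was not tested.

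The first comparison asked how sterol synthesis genes differed between the 2 stages. All 7 were lower in small pre-B than in pro-B cells, in both genotypes and in every library. Their summed level was 393.1 and 337.2 CPM in the pro-B controls and 392 and 435.4 in the pro-B KO. It was 97.94, 95.91 and 108 in the small pre-B controls and 115.1, 115.6 and 95.9 in the small pre-B KO, so the ranges of the stages were far apart.

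**Figure D1:**
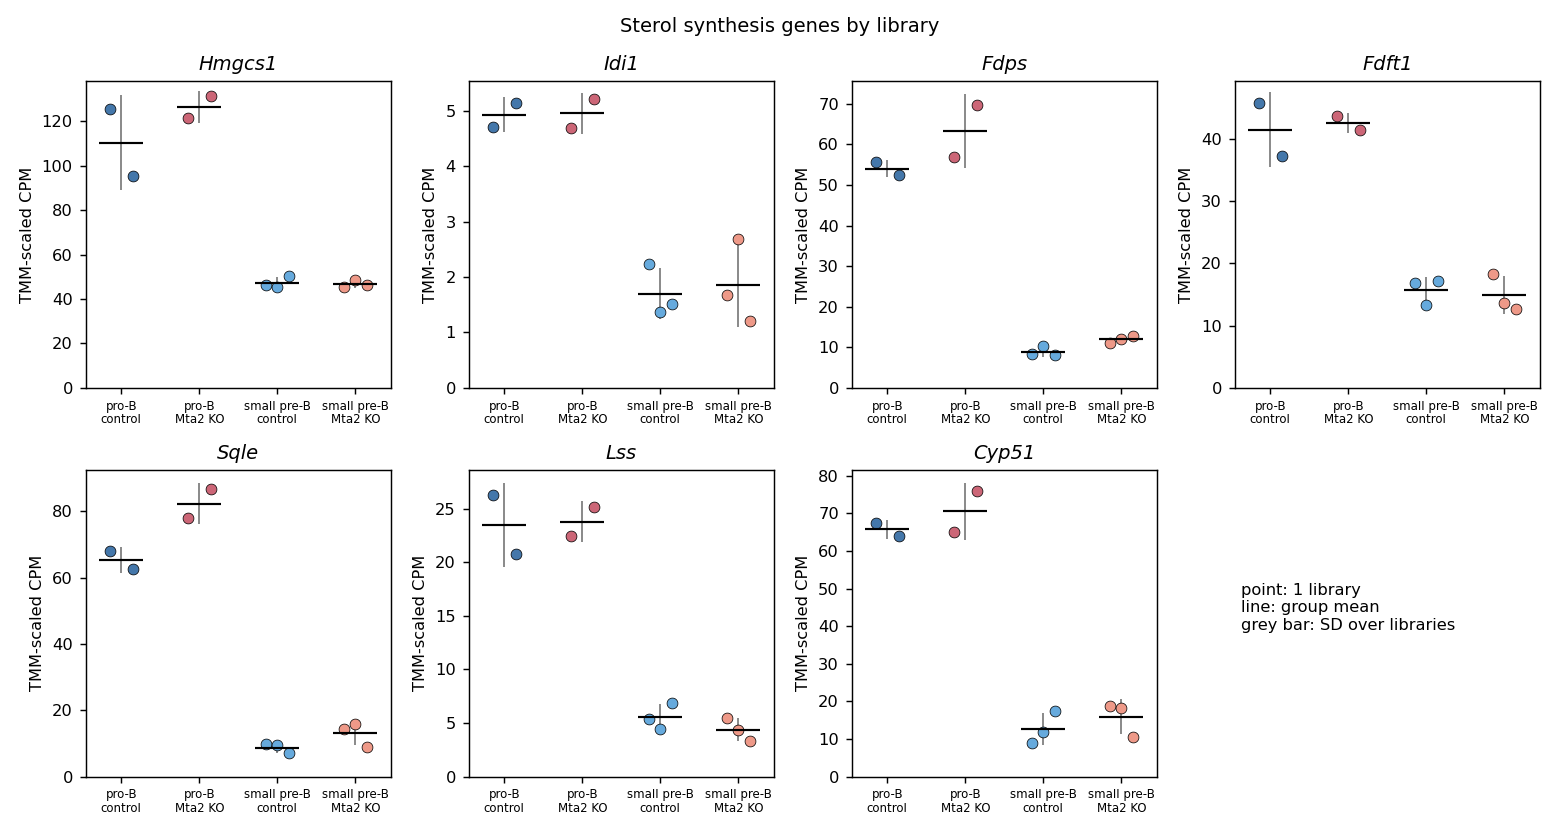
Level of each of the 7 genes in each library, in CPM scaled by TMM factors. Points are libraries, black lines group means and grey bars the SD over the 2 or 3 libraries; every small pre-B library lies below every pro-B library for each gene.

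Hmgcs1, at the head of the pathway, read 125.4 and 95.16 CPM in pro-B controls and 46.43, 45.2 and 50.14 in small pre-B controls. In the KO it read 121.3 and 131.5 CPM in pro-B and 45.29, 48.64 and 46.48 in small pre-B cells. The stages did not overlap, and Hmgcs1 fell by 1.22 on the log2 scale in controls (SE 0.126, adjusted p = 6.52e-05) and by 1.43 in the KO (adjusted p = 2.74e-05, edgeR quasi-likelihood test). It was the smallest fall of the 7 in controls.

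Idi1 was at the lowest level of the group, with 4.7 and 5.146 CPM in pro-B controls and 2.23, 1.37 and 1.506 in small pre-B controls. The KO libraries read 4.694 and 5.216 CPM in pro-B and 1.673, 2.687 and 1.212 in small pre-B cells. It fell by 1.54 in controls (SE 0.355, adjusted p = 0.00538) and by 1.41 in the KO (adjusted p = 0.00919, same test). The KO call rests on pro-B KO library 2, without which its adjusted p was 0.0598.

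Fdps, the branch point enzyme, read 55.56 and 52.5 CPM in pro-B controls and 8.25, 10.31 and 8.097 in small pre-B controls. Among KO libraries it read 56.84 and 69.69 CPM in pro-B and 11.08, 12.13 and 12.68 in small pre-B cells. Its fall of 2.60 in controls was 6.08-fold (SE 0.15 on the log2 scale, adjusted p = 5.05e-06), and that in the KO was 5.28-fold (adjusted p = 5.74e-06, same test).

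Fdft1, which makes squalene, read 45.68 and 37.14 CPM in pro-B controls and 16.78, 13.29 and 17.07 in small pre-B controls. In the KO it read 43.65 and 41.35 against 18.35, 13.59 and 12.73 CPM. It fell by 1.398 in controls (SE 0.186, adjusted p = 0.000272) and by 1.52 in the KO (adjusted p = 0.000182, same test). Its exons overlap those of Ctsb, a lysosomal protease gene on the opposite strand, over 774 bases, and the counting used no strand, so its values are uncertain. In the deposited annotation Lss likewise overlaps 4930483K19Rik over 150 bases. The GENCODE M21 annotation adds opposite-strand overlaps for Cyp51 (Akap9, 637 bases), Hmgcs1 (Gm48342, 458) and Idi1 (Gm48574, 218). It also has a same-strand overlap of Fdps with Gm43738 (197 bases). Values of these genes carry the same limit.

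Sqle, the next step and a rate-limiting one, had the largest difference of the 7 in both genotypes. It read 67.96 and 62.56 CPM in pro-B controls and 9.866, 9.426 and 6.96 in small pre-B controls. The KO libraries read 77.91 and 86.61 against 14.36, 15.96 and 8.905 CPM. Sqle was 7.48-fold lower in small pre-B controls (log2 change -2.90, SE 0.239, adjusted p = 2.2e-05) and 6.29-fold lower in small pre-B KO cells (adjusted p = 2.97e-05, edgeR quasi-likelihood test).

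Lss read 26.27 and 20.73 CPM in pro-B controls and 5.351, 4.471 and 6.875 in small pre-B controls, and 22.45 and 25.11 against 5.48, 4.307 and 3.357 in the KO. It was 4.21-fold lower in controls (adjusted p = 0.00014) and 5.44-fold lower in the KO (adjusted p = 6.12e-05). Cyp51 read 67.58 and 63.98 CPM in pro-B controls and 9.03, 11.84 and 17.33 in small pre-B controls. In the KO, Cyp51 read 65.14 and 75.92 against 18.86, 18.26 and 10.54 CPM. Its differences were 5.14-fold in controls (adjusted p = 0.000181) and 4.44-fold in the KO (adjusted p = 0.000315, same test), and its small pre-B libraries spread more widely than those of Hmgcs1.

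Thus 7 of 7 passed the test as lower in each genotype, where 29.4% of all tested genes were called lower in controls and 27.3% in the KO. Of all tested genes, 38.9% in controls and 39.4% in the KO had every small pre-B library below every pro-B library. The median log2 change of the 7 was -2.07 in controls and -2.15 in the KO, against -0.02 over all genes tested in each. The fall was graded along the pathway without a simple order: Sqle, Fdps and Cyp51 had the largest changes in controls, and Hmgcs1 and Fdft1 the smallest. Leaving out small pre-B control 3 gave falls of 1.26 for Hmgcs1 to 2.76 for Sqle in controls, with all 7 still called. With small pre-B KO library 3 alone in its group, all 7 were called in the KO, from -1.45 for Hmgcs1 to -3.21 for Sqle; its spread was then assumed to equal that of the other groups.

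**Figure D2:**
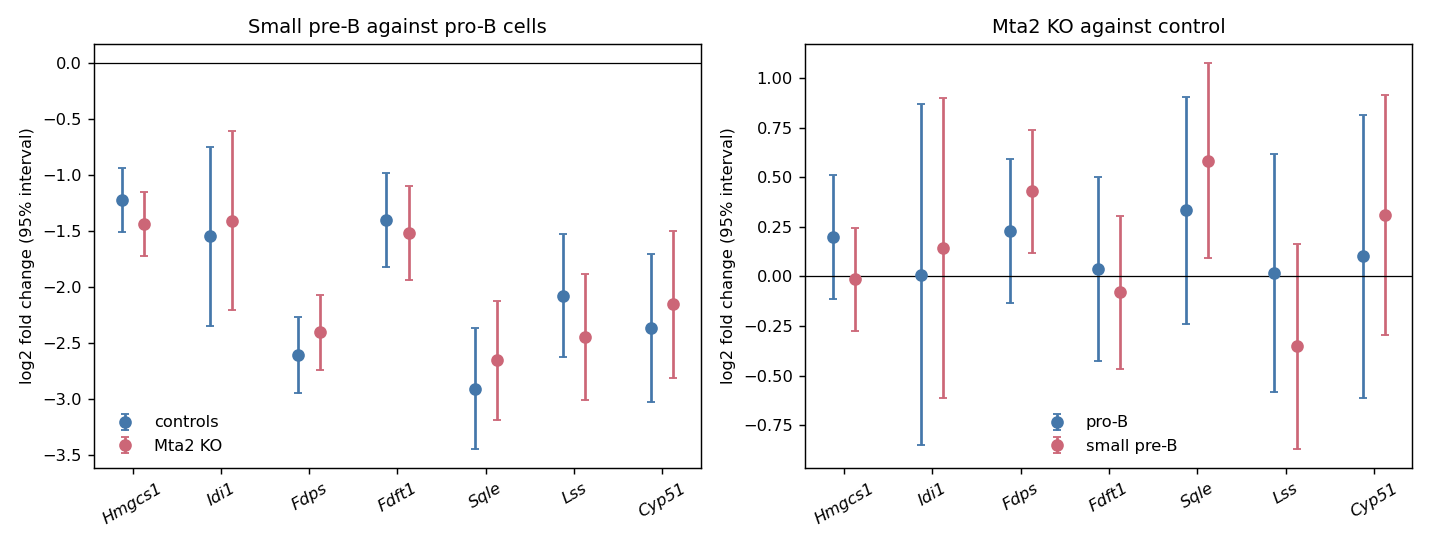
Log2 fold changes of the 7 genes with 95% intervals, between stages (left) and between genotypes (right), from 1 edgeR model over the 10 libraries. All 14 stage intervals lie below 0, while the genotype changes lie between -0.35 and 0.58, and those of Fdps and Sqle in small pre-B cells exclude 0 before adjustment for the genes tested.

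Compared per length of exon, as RPKM (CPM per kilobase of exon), the order of the genes changed between the stages. In pro-B controls, mean levels ran from Fdps at 36.98 ± 1.48 (SD, n = 2) and Hmgcs1 at 33.58 ± 6.5 through Sqle at 23.75 ± 1.39, Cyp51 at 15.11 ± 0.584 and Fdft1 at 14.46 ± 2.11 to Lss at 7.575 ± 1.26 and Idi1 at 1.717 ± 0.11. Fdps and Hmgcs1, and Cyp51 and Fdft1, did not differ beyond their spread. In small pre-B controls Hmgcs1 led at 14.39 ± 0.784 RPKM (SD, n = 3), followed by Fdps at 6.082 ± 0.847, Fdft1 at 5.489 ± 0.734, Sqle at 3.184 ± 0.57, Cyp51 at 2.925 ± 0.97, Lss at 1.794 ± 0.392 and Idi1 at 0.5935 ± 0.161. There Fdps and Fdft1 overlapped, as did Sqle and Cyp51. Some levels are less certain: processed pseudogenes match an Idi1 transcript at 100% identity over 684 bases (Gm13502), an Fdps transcript at 98.9% over 1062 bases (Gm3571) and an Fdft1 transcript at 97.4% over 1249 bases (Gm6781), and reads shared with them may have been lost or misplaced.

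The rest of the synthesis pathway moved the same way. Of the other 13 enzymes, 11 fell in controls and 12 in the KO, with none called higher. The share of all tested genes called lower was 29.4% in controls and 27.3% in the KO. The median log2 change of the 13 enzymes was -1.07 in controls and -1.21 in the KO. Sc4mol, the older symbol of the sterol methyl oxidase Msmo1, changed by -2.44 in controls and -2.53 in the KO, and Mvd, which makes isopentenyl diphosphate, by -1.96 and -1.83. With KO library 3 alone in its group 10 enzymes fell in the KO. Pmvk fell by 1.46 in controls and Sc5d by 1.26 in the KO. The exceptions were Hsd17b7, at 0.23 in controls (adjusted p = 0.397), and Tm7sf2, a sterol reductase, at -0.25 in controls (adjusted p = 0.452) and -0.70 in the KO (adjusted p = 0.0541).

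Genes of the branches that leave the pathway after farnesyl diphosphate gave few calls. Of 11 genes of the isoprenoid branch, 3 rose and 1 fell in controls, and 3 rose and none fell in the KO, with medians of 0.13 and -0.04; 26.0% of all tested genes were called higher in controls and 24.0% in the KO. Ggps1, which makes geranylgeranyl diphosphate, rose by 0.89 in controls and 0.69 in the KO. The prenyltransferase subunits Pggt1b (1.21 and 0.96) and Rabggta (0.996 and 0.827) also rose, while Fntb fell by 0.71 in controls. With KO library 3 alone in its group Pggt1b was at 0.63.

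Among 7 genes of SREBP control, 2 rose and 2 fell in controls, and 2 rose and 3 fell in the KO, with medians of -0.22 and -0.09. Among all tested genes 26.0% rose and 29.4% fell in controls, and 24.0% and 27.3% in the KO; with 7 genes, these counts lie near those shares. Srebf2, which encodes SREBP2, read 327.7 and 339.8 CPM in pro-B controls and 122, 138.9 and 76.11 in small pre-B controls. It fell by 1.57 in controls and 1.18 in the KO. Insig1, itself a target of SREBPs, fell by 1.41 and 1.78, and Scap, the SREBP escort, fell by 0.70 in the KO (-1.08 with KO library 3 alone in its group). Insig2 (0.76 and 0.79) and the protease gene Mbtps1 (0.60 and 0.53) rose.

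Of 12 genes of cholesterol uptake and transport, 8 fell and 2 rose in controls, and 7 fell and 2 rose in the KO. Their medians were -0.78 and -0.75. Without small pre-B control 3, 6 fell in controls. Among all tested genes 29.4% were called lower and 26.0% higher in controls, and 27.3% and 24.0% in the KO. Lrp8, a lipoprotein receptor, changed by -5.87 in controls and -5.51 in the KO, and Npc1, which moves cholesterol out of lysosomes, by -2.77 and -2.79. Scarb1, a scavenger receptor, fell by 1.89 in controls, and Stard3, a sterol carrier of late endosomes, by 0.81 in the KO. Mylip, a ubiquitin ligase that degrades lipoprotein receptors, rose by 3.05 and 2.75. Vldlr had no count in small pre-B controls, at least 3.13-fold lower than in pro-B controls with 3 counts over all libraries of the group taken as the floor, which covers counting error only.

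Of 9 tested genes of efflux, esterification and oxysterols, 3 rose and 5 fell in each genotype. Their medians were -1.04 and -1.55, and were the same with Cyp7b1 at its bound. Among all tested genes 26.0% were called higher and 29.4% lower in controls, and 24.0% and 27.3% in the KO. With 9 genes, the 3 that rose lie near those shares. Abca1, the cholesterol exporter, read 13.91 and 22.69 CPM in pro-B controls and 158, 262.6 and 319.4 in small pre-B controls, a rise of 3.75 in controls and 3.35 in the KO. Abcg1, a second exporter, rose by 1.817 and 2.084, and Nr1h2, which encodes a liver X receptor, by 0.39 and 0.50. Soat1, which esterifies cholesterol, fell by 1.04 and 1.55, Cyp27a1, an oxysterol-forming enzyme, by 3.50 and 4.99, and Apoe by 2.26 and 3.81. Soat2 fell by 2.60 in the KO (-4.05 with KO library 3 alone in its group). Cyp7b1 had no count in any small pre-B library and was at least 18.3-fold lower in controls and 4.05-fold lower in the KO.

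**Figure D3:**
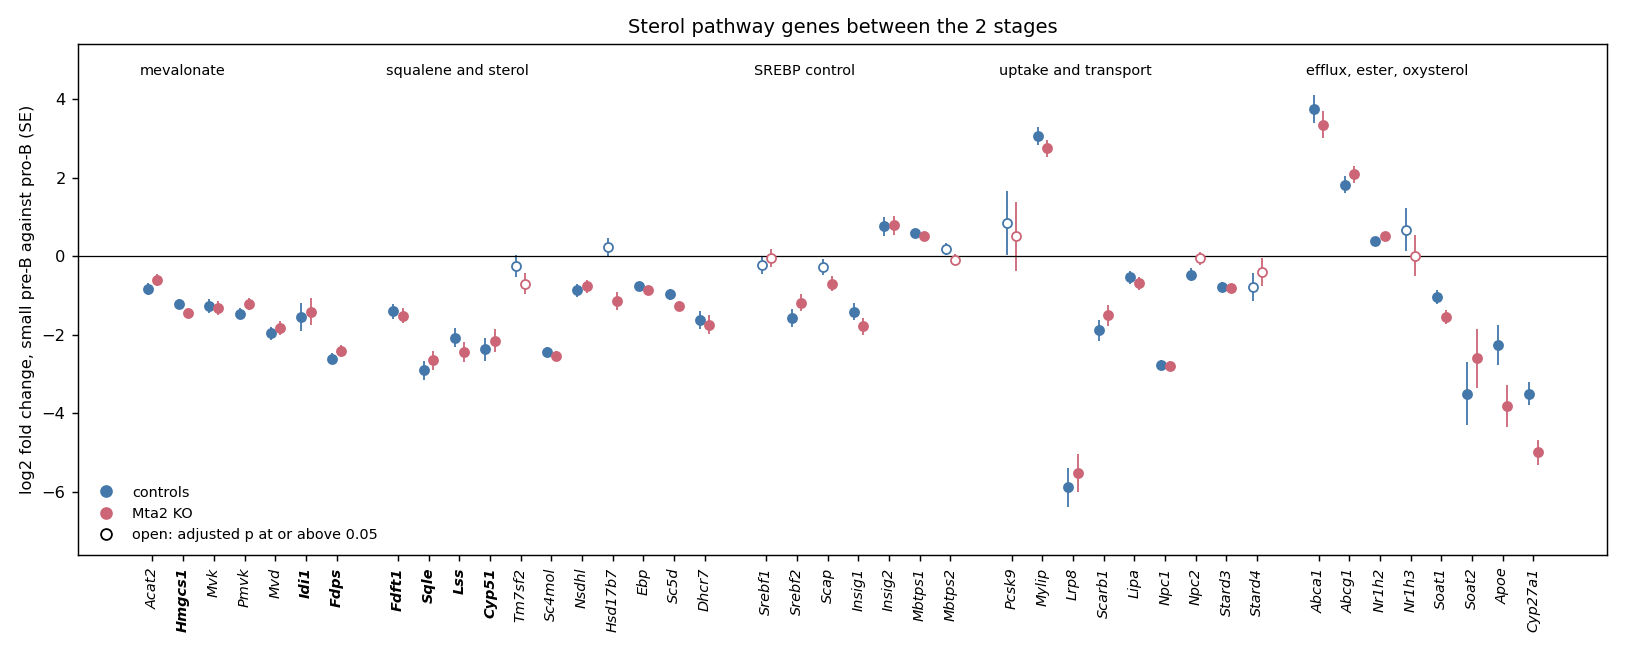
Log2 fold change (bars are SE) of sterol pathway genes in small pre-B against pro-B cells, in controls and in the Mta2 KO, with the 7 genes in bold; open points did not pass the test. Vldlr and Cyp7b1, without counts in some groups, are left out. The synthesis genes plotted lie below 0 except Hsd17b7 in controls, while Mylip, Abca1 and Abcg1 lie above.

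Of 9 tested fatty acid genes under SREBPs, 2 rose and 3 fell in controls, and 1 rose and 3 fell in the KO, with medians of -0.77 and -0.09. Among all tested genes 26.0% were called higher and 29.4% lower in controls, and 24.0% and 27.3% in the KO, so these counts lie near those shares. Scd1, the stearoyl-CoA desaturase, rose by 3.19 in controls and 3.50 in the KO, and Acly, which supplies cytosolic acetyl-CoA, by 0.36 in controls. Fads2 fell by 3.20 and 3.03 and Fads1 by 1.58 and 1.18, Acss2 by 0.82 in controls and Acaca by 1.08 in the KO. With KO library 3 alone in its group Fads1 was at -1.91 and Acaca at -2.01.

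Many cell cycle genes and markers of other cells were also lower in small pre-B cells. Of 16 cell cycle genes, 10 fell in controls and 9 in the KO, with medians of -1.11 and -1.16, and none was called higher. The other 6 in controls and 7 in the KO did not pass. Changes ran from -2.19 to -0.27 in controls and from -2.02 to 0.17 in the KO. The share of all tested genes called lower was 29.4% in controls and 27.3% in the KO. With small pre-B KO library 3 alone in its group, 14 fell in the KO. The smallest p values among them in controls were those of Ccnb1 (-2.16), Birc5 (-2.19), Ccnb2 (-1.16) and Aurkb (-1.67), all mitotic genes. Their summed level was 5217 to 7066 CPM in pro-B and 1578 to 3810 in small pre-B libraries. The myeloid markers given above were also lower in every small pre-B library, by far more than the 7 genes. B lineage markers summed higher. Of these 7 markers, 6 were called higher in each genotype, and 1 was called lower in the KO. Among all tested genes 26.0% were called higher in controls and 24.0% in the KO. The part of the cell cycle and of other cells in the stage difference was not tested.

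**Figure D4:**
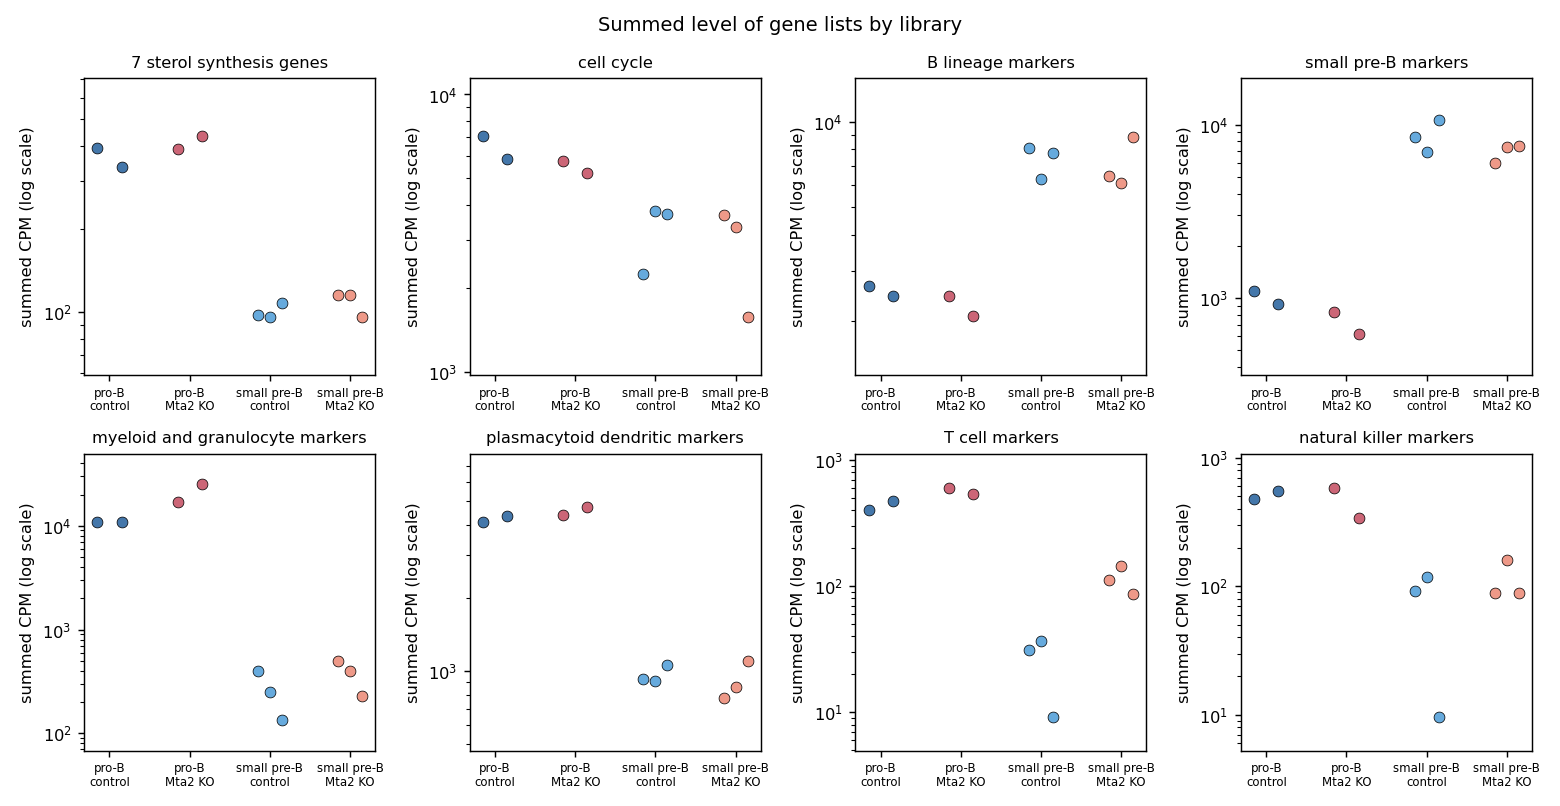
Summed CPM (log scale) of the 7 sterol synthesis genes, of cell cycle genes and of cell type markers in each library; points are libraries. The sterol genes, cell cycle genes and markers of myeloid, plasmacytoid dendritic, T and natural killer cells are lower in small pre-B libraries, and B lineage and small pre-B markers are higher.

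The second comparison asked how these genes differed between Mta2 KO and control libraries, with Mta2 RNA lower but still present in the KO. In pro-B cells 0 of 7 passed the test, where 0.0353% of all tested genes did, in either direction. No member had an unadjusted p under 0.05, against 913 of the genes tested, and DESeq2 and limma-voom also called 0. The 7 log2 changes ran from 0.01 for Idi1 to 0.33 for Sqle, with a median of 0.10 against -0.01 over all genes. Sqle had both KO libraries above both controls at 0.33 (95% interval -0.24 to 0.91, adjusted p = 1) and so did Fdps at 0.23 (-0.14 to 0.59, adjusted p = 1, edgeR quasi-likelihood test); 27.4% of all tested genes had both KO libraries above both controls. The interval for Hmgcs1 ran from -0.12 to 0.51 and that for Cyp51 from -0.61 to 0.82, so changes within these intervals are not excluded. Larger changes could also miss the threshold, as that of Mta2 did in pro-B cells at -1.31. Beside these values, the myeloid markers summed higher in both pro-B KO libraries than in both controls; their part was not tested.

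In small pre-B cells 0 of 7 passed the test, where 3.02% of all tested genes did. Fdps and Sqle had an unadjusted p under 0.05, against 3495 of all tested genes, and DESeq2 and limma-voom called 0 of 7. Fdps was at 0.43 (95% interval 0.12 to 0.74, adjusted p = 0.107), with all 3 KO libraries above all 3 controls, as for 13.3% of all tested genes. Without small pre-B control 2 its change was 0.55 with an adjusted p of 0.0406 (edgeR quasi-likelihood test), which passed. In that setting 1667 genes in all were called, against 428 in the main model. Sqle was at 0.58 (0.09 to 1.08, adjusted p = 0.145), and KO library 3 lay among the controls. With KO library 3 alone in its group Sqle was at 0.04 and Fdps at 0.52.

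The other 5 genes lay on either side of 0. Cyp51 was at 0.31 (95% interval -0.29 to 0.91) and Idi1 at 0.14 (-0.61 to 0.90). Hmgcs1 was at -0.01 (-0.27 to 0.24), the narrowest interval of the 7, Fdft1 at -0.08 (-0.47 to 0.31) and Lss at -0.35 (-0.87 to 0.16). The median of the 7 was 0.14, against 0.01 over all genes. KO library 3 had the lowest Sqle, Idi1, Fdft1, Lss and Cyp51 of the 3 KO libraries. The same library had the lowest summed level of the cell cycle genes, 1578 CPM against 3680 and 3334 in KO libraries 1 and 2; the part of this was not tested. With it alone in its group Cyp51 was at -0.27, Idi1 at -0.47 and Lss at -0.73. Without small pre-B control 3, Cyp51 was at 0.60 and Lss at -0.17.

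Genes of some marker lists also stood higher in the small pre-B KO libraries. T cell markers summed to 31.22, 36.58 and 9.205 CPM in controls and 112.5, 144.4 and 86.11 in the KO. Of these, 6 of 10 were called higher, with a median log2 change of 2.50, where 1.89% of all tested genes were called higher. Genes listed as pro-B markers summed to 1690, 1450 and 1278 CPM in controls and 2623, 1800 and 1865 in the KO. For the KO effect 1 of 8 was called higher, 7 of 8 were above 0 and the median was 1.25. The same list summed to 1507 to 1619 CPM in pro-B controls and 1748 to 1911 in pro-B KO. Between the stages in controls, 1 of the 8 was called higher and 2 lower in small pre-B cells. Its sum thus did not set pro-B cells apart here. The 14 myeloid and granulocyte markers all had changes above 0, with a median of 0.58, and none passed the test. An unadjusted p under 0.05 was found for 2 of them. Other lists went the other way. Of 8 plasmacytoid dendritic markers, 6 were below 0 and 2 above, with a median of -0.66 and 1 called lower. Of 8 small pre-B markers, 5 were below 0 and 3 above, with a median of -0.24 and 1 called lower. Among all tested genes 1.14% were called lower. The part of other cells in the small pre-B KO values of the 7 genes, and in those of Hsd17b7 and Cyp27a1 below, was not tested.

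Outside the 7 genes, 2 pathway genes passed the test in small pre-B KO cells, and both fell; 1.14% of all tested genes were called lower. Hsd17b7, a ketosteroid reductase that acts after Cyp51 in the removal of methyl groups, read 18.28, 13.94 and 22.9 CPM in controls and 7.961, 8.1 and 6.713 in the KO. It was 2.42-fold lower (log2 change -1.28, SE 0.207, adjusted p = 0.0254, edgeR quasi-likelihood test). In pro-B cells it read 17.86 and 13.39 CPM in controls and 15.94 and 17.47 in the KO, and the difference of the 2 KO effects was -1.37 (adjusted p = 0.579). Cyp27a1 read 8.083, 4.391 and 7.159 CPM in small pre-B controls and 1.731, 2.805 and 1.399 in the KO, 3.26-fold lower (adjusted p = 0.0263, same test). Both calls depended on the settings. The adjusted p over 19 alternatives ran from 3.44e-06 to 0.184 for Hsd17b7, which passed in 8, and from 2.42e-06 to 0.171 for Cyp27a1, which passed in 7. With KO library 3 alone in its group they were at -1.45 and -2.21, and neither passed.

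Acat2, which supplies acetoacetyl-CoA, lay close to the threshold in small pre-B cells without passing, at 0.60 (adjusted p = 0.0553, edgeR quasi-likelihood test). It was picked out after its values were seen. By the rule for lists without a call, genes with the smallest p in small pre-B cells were Srebf2 (0.52, adjusted p = 0.166) and Mbtps2 (-0.31, 0.182) for SREBP control, Npc2 (0.49, 0.0961) for uptake, Fntb (0.40, 0.171) and Pdss2 (-0.47, 0.196) for isoprenoids, Fads2 (0.78, 0.11) and Elovl6 (1.02, 0.12) for fatty acids, and Mki67 (-0.53, 0.377) and Ccna2 (-0.39, 0.59) for the cell cycle.

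In pro-B cells no listed pathway gene passed. The smallest p values belonged to Acat2 (0.37, adjusted p = 0.787) and Tm7sf2 (0.59, 0.881) among enzymes, Insig1 (0.31, 1) and Scap (0.19, 1) in SREBP control, and Vldlr (2.70, 0.539) and Lipa (-0.34, 0.95) in uptake. Apoe (2.23, 0.372) and Soat1 (0.59, 0.564) led efflux, Scd1 (-0.78, 0.384) and Fads2 (0.60, 0.86) the fatty acid genes, Fntb (-0.22, 1) and Pdss2 (-0.25, 1) the isoprenoid genes, and Pcna (-0.38, 1) and Mcm3 (-0.25, 1) the cell cycle genes. Scd1 read 21.84 and 16.45 CPM in controls and 12.1 and 10.21 in the KO.

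The test of whether the KO effect differed between the stages called 0 of 7, and 0% of all tested genes. It is also the test of whether the stage difference depended on the Mta2 genotype. Of all tested genes 907, and none of the 7, had an unadjusted p under 0.05, and DESeq2 called 58 genes and none of the 7. The differences ran from -0.37 for Lss (95% interval -1.16 to 0.42) to 0.25 for Sqle (-0.502 to 1.004). Listed genes with small p values for the difference were Hsd17b7, Fntb (0.63, adjusted p = 0.738), Ggps1 (-0.21, 0.83), Scap (-0.42, 0.792), Mbtps2 (-0.27, 0.8), Npc2 (0.42, 0.778), Cyp27a1 (-1.49, 0.689), Apoe (-1.54, 0.768), Acss2 (0.73, 0.749), Acly (-0.26, 0.792), Pcna (0.43, 0.803) and Mcm2 (0.41, 0.839). The 2 stage comparisons share no library, and their values stood at -2.90 and -2.65 for Sqle, -2.60 and -2.40 for Fdps, and -2.07 and -2.44 for Lss.

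How far the 7 genes moved as a unit was described over the 10 libraries, which fall into the 2 stages. Pearson's r of log2 CPM between pairs of the 7 ran from 0.906 to 0.991 over 21 pairs, with a median of 0.953. With each group's mean subtracted it ran from -0.657 to 0.876, with a median of 0.218, so that most of the likeness lay between groups. Genes most like the mean of the 7 over the 10 libraries, outside the lists, included Tex2 (r = 0.997), Slc39a14, Nme2 and Ddost (0.996 each), then Samsn1, Tarm1, Slc22a15 and Tmem248 (0.995 each) and Dnajb14 (0.994). Listed genes close to it were Npc1 (0.995) and Sc4mol (0.992). With group means subtracted the most alike were Mtr (0.986), Tshz2 (0.973), Gcfc2, Vav3 and Zkscan8 (0.962 each), Chd1l (0.959), Il20ra and Lypla1 (0.957 each), Saal1 (0.955) and Rrp12 (0.950), and Sc5d (0.948) among the listed genes. With group means subtracted, the mean of the 7 lay lowest in small pre-B KO library 3, at -0.293. It was at 0.13 and 0.163 in KO libraries 1 and 2, and at -0.085 to 0.085 in the other groups. The second set of r values thus weighs the small pre-B KO libraries most. All these r values share library and depth, those of the first set also stage, and none carries a test.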

How the data were processed

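RNA from 10 libraries was prepared with the TruSeq Stranded mRNA kit, per the labels' protocols. The deposited values are raw counts per gene made by the authors with featureCounts 1.4.3-p1, per the file headers, over exons of an mm10 annotation and with no strand option. CASAVA 1.82, STAR and the build mm9 are named in the submitters' processing notes. The 7 genes and the gene lists were chosen with earlier results of these data known. All 14161 genes kept by filterByExpr (minimum count 10) were fitted in 1 edgeR 4.0.16 quasi-likelihood model with 4 group means, TMM scaling and R 4.3.3, and p-values were adjusted over all of them (Benjamini-Hochberg, threshold 0.05). CPM uses TMM-scaled library sizes, and RPKM divides it by exon length. DESeq2 1.42.0, limma-voom (limma 3.58.1), other scalings and filters, a block on title numbers and leaving out each library were alternatives, and the code was tested on simulated data. Named genes were, for each list and comparison, up to 4 called genes a direction by smallest p, or else the 2 smallest p. A gene near the threshold, and the alternative with 1 small pre-B KO library, were chosen after seeing the data. Other cell types and genotypes of the series were not analysed here. Some genes of the lists are not reported by name here; the counts and medians of the lists include them.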

Additional observations from a re-analysis of the deposited data

How the results depend on the processing

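All 7 genes were called lower in small pre-B controls under each of 18 alternatives. In the KO all 7 were called except without pro-B KO library 2, which left 6. Over these alternatives 5335 to 8343 genes in all were called in either direction in controls, and 4673 to 8657 in the KO. No member was called for the KO in pro-B cells (19 alternatives) or for the difference of KO effects (18). In small pre-B cells leaving out 1 library gave 0 to 1 members called, the 1 being Fdps without small pre-B control 2. That setting called 1667 genes in all. The calls over all genes moved more: in pro-B cells 5 became 856 with the compared groups alone, 182 with DESeq2 and 148 with limma-voom, and 0 to 25 with a library left out; in small pre-B cells 428 became 0 with the compared groups alone, 1869 with DESeq2 and 1 to 1667 with a library left out. Without small pre-B control 3 it was 280. For the difference, 0 became 58 with DESeq2 and 0 to 40 with a library left out. Title numbers were not treated as pairs in the main model. With group means subtracted, same-numbered libraries correlated at 0.102, 0.155 and 0.045 in small pre-B cells. Each small pre-B library correlated best with its own number. In pro-B cells the value was 0.015, but with 2 libraries a group it cannot show whether libraries were paired. These values do not settle the pairing. A replicate block on title numbers called 0 members in both KO comparisons and in the difference, and 0 and 153 genes in all in pro-B and small pre-B cells.

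Signs changed only among values that passed no test, and the cause was not tested. With upper-quartile scaling Idi1 in pro-B was -0.004 and Hmgcs1 in small pre-B 0.002. With a library left out, the KO effect in pro-B ran from -0.069 to 0.085 for Idi1, -0.104 to 0.194 for Fdft1, -0.144 to 0.198 for Lss and -0.014 to 0.208 for Cyp51. In small pre-B it ran from -0.048 to 0.03 for Hmgcs1, -0.231 to 0.379 for Idi1 and -0.255 to 0.021 for Fdft1. The difference ran from -0.24 to 0.369 for Idi1 and -0.293 to 0.027 for Fdft1. With small pre-B KO library 3 alone in its group, Idi1 was -0.472 and Cyp51 -0.274 in small pre-B, and the differences were -0.3 for Sqle, -0.482 for Idi1 and -0.375 for Cyp51. Depth limited Idi1 most, with 26 to 68 counts in small pre-B libraries.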
